A study of Mus musculus with 12 samples.

Results

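The AP-1 and immediate early genes examined here are Fos, Fosb, Fosl1, Fosl2, Jun, Junb, Jund, Egr1, Ier2 and Atf3, 10 of the 55335 Ensembl gene IDs counted. They were chosen by symbol, each symbol matched 1 ID, and all 10 passed the filter on low counts. RNA was sequenced from cultured fibro-adipogenic progenitors (FAPs), the mesenchymal cells between the fibres of mouse limb muscle, in 12 libraries that form 4 groups of 3. Smn1OE_K186R FAPs carried a transfected vector for SMN with the K186R change, and Bap1, which encodes a nuclear deubiquitinase, had been deleted in them with 4-hydroxytamoxifen (4-OHT). SMN, of which human constructs were used per the labels, assembles spliceosomal particles. Smn1OE FAPs had the same deletion and a vector for unmutated SMN, Bap1KO FAPs the deletion alone, and WT FAPs ethanol in place of the drug. All were sorted as Lin- Vcam- Sca1+ cells and kept in alpha-MEM containing 20% FBS, so serum was present in every group. A medium change of 24 h is recorded for all 12 libraries. The time from the last change to harvest was not part of the comparisons. The treatment text names Rosa-CreER as the driver of deletion at 1 μM 4-OHT, whereas the source label of the deleted groups names Prrx1Cre;Bap1f/f mice and that of WT a wild-type mouse. No group analysed here held an empty vector, SMN without 4-OHT, or 4-OHT with Bap1 intact, so each vector and the drug cannot be told apart from SMN and from the deletion. Ages are not given in the labels, and nothing says whether the replicates came from separate animals, so p-values measure only the spread between these samples.

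AP-1 is a dimer of bZIP proteins that binds DNA through a basic region and pairs through a leucine zipper. Fos proteins bind DNA only as partners of another bZIP protein, usually a Jun protein, while Jun proteins can also pair with each other or with ATF proteins such as ATF3. The classical immediate early genes, among them Fos, Fosb, Jun, Junb, Egr1 and Ier2, are transcribed from pre-existing factors soon after serum, growth factor or stress signals, and their mRNAs are short-lived. Fosl1 and Fosl2 are induced later and persist in growing fibroblasts, and Jund is expressed constitutively in many cells. Atf3 is a stress-induced member of the ATF family.

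The promoters of Fos, Junb, Jun and Atf3 are shown because Fos and Junb were lower with either SMN vector, Atf3 was higher, and Jun was not called in any comparison. RefSeq's promoter table (build GRCm38.p6, a different build from the GRCm39 of the counts) matched 7 of the 10 symbols, and the 250 bases before the annotated start are printed 5′ to 3′. Capitals mark TGACG, the core of the CRE bound by CREB and ATF proteins, TGACATCA, the AP-1-like element known from Jun, and TATAAA, each searched on both strands. Their places are chr12:85473640-85473889 (+), chr8:84978749-84978998 (-), chr4:95052223-95052472 (-) and chr1:191183334-191183583 (-).
Fos: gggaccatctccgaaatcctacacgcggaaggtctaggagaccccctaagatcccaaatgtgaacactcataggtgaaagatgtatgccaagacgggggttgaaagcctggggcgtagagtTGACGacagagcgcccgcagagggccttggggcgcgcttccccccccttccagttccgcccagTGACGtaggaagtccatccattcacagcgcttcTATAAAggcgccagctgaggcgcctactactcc
Junb: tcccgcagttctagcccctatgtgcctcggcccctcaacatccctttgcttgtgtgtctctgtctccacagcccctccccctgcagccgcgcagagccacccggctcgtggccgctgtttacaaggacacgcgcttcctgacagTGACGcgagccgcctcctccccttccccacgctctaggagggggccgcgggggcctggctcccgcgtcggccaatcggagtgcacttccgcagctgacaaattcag
Jun: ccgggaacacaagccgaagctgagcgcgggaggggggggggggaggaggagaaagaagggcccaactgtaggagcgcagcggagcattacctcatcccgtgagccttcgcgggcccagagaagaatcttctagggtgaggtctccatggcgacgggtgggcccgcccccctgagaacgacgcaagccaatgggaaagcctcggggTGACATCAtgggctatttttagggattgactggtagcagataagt
Atf3: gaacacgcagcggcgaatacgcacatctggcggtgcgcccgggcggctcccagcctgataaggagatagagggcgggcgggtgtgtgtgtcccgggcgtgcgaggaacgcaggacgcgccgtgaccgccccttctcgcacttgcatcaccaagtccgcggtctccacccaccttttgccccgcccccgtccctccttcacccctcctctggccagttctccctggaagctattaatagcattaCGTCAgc
TGACG stood in 4 of the 7 matched windows, those of Fos, Fosb, Junb and Atf3, and in 17.8% of the 32841 windows of that length in the table. In Fos it began 129 and 66 bases before the start, in Junb 106, and in Atf3 7 on the opposite strand. TGACATCA was found in Jun alone of the 7, 45 bases before the start, and in 2.93% of all windows. TATAAA was found in Fos alone of the 7, against 12.4% of all windows. None of the 7 windows held TGACGTCA (1.55% of all), which contains TGACG, the canonical AP-1 site TGACTCA (4.46%) or a CArG box, the core of the serum response element (1.47%). Only these 250 bases were searched, so an element further upstream would be missed and its absence from a gene cannot be inferred. Fosl1, Egr1 and Ier2 were not among the 7 windows. A match is a run of letters and not a bound site, the annotated start may not be the one used in these cells, and Atf3, which was higher with SMN, held TGACG as did Fos and Junb, which were lower.

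Library totals lay between 51.2 and 68.2 M counts, which gave the 10 genes 163 counts or more in every library. Levels are counts per 1 M counts of the library (CPM), scaled by TMM, a normalisation that assumes most genes are equal. A gene is called where edgeR's quasi-likelihood test gave a Benjamini-Hochberg adjusted p under 0.05 over 16597 tested genes. Against WT 50.5% of them were called in Smn1OE_K186R and 50.4% in Smn1OE, so that assumption may not hold there. The median log2 fold change of all tested genes was -0.02 in both with TMM. With DESeq2 size factors it was 0.01 in Smn1OE_K186R and 0.02 in Smn1OE. Bap1 stood at 41.7 to 47.3 CPM in Smn1OE_K186R, 47.5 to 50 in Smn1OE, 39.3 to 42.3 in Bap1KO and 49.7 to 52 in WT, so whole-gene counts fell by only 0.32 on the log2 scale in Bap1KO against WT (adjusted p = 0.0139), a call lost without Bap1KO replicate 3 (0.0637) or WT replicate 3 (0.0504). In Smn1OE, Bap1 overlapped WT and was higher than in Bap1KO by 0.28 (adjusted p = 0.00924). Counts over the whole gene include transcripts that lack a deleted exon, so they do not check the deletion. Counts assigned to mouse Smn1 stood at 3688 to 4356 CPM in Smn1OE_K186R and 3792 to 5593 in Smn1OE, against 30.5 to 35.1 in Bap1KO and 31.6 to 34.8 in WT. Per the labels, Bap1KO and WT shared 3 culture media batches, as did Smn1OE_K186R and Smn1OE, but no batch held libraries of both pairs. Y-linked Eif2s3y was counted in all 6 SMN libraries (57.9 CPM or more) and had no count in the other 6. Xist, the X-inactivation RNA, did the reverse: 197 to 305 CPM in those other 6, and 0.113 CPM or less in the SMN libraries. The SMN libraries thus had a male pattern and the others a female one. SMN, batch, sex and animal therefore cannot be told apart wherever an SMN group is set against Bap1KO or WT.

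Fos, which gave AP-1 its Fos family, had the largest difference between groups: it was several-fold lower with either SMN vector than without. Its level was 16.4, 9.28 and 4.52 CPM in Smn1OE_K186R replicates 1 to 3, 8.18, 8.79 and 3.79 in Smn1OE, 45.4, 14.1 and 41.1 in Bap1KO, and 40.7, 32.7 and 64.6 in WT. All SMN libraries lay below all WT libraries, and only Bap1KO replicate 2 reached down into the range of the SMN groups, below Smn1OE_K186R replicate 1. Fos was 4.82-fold lower in Smn1OE than in Bap1KO, a log2 fold change of -2.27 ± 0.52 (SE; adjusted p = 0.00646), and it held this call in every alternative. It was 3.31-fold lower in Smn1OE_K186R than in Bap1KO (-1.73 ± 0.50, adjusted p = 0.0214). This K186R call did not survive removal of Bap1KO replicate 1 (0.0728) or 3 (0.0638), or of Smn1OE_K186R replicate 2 (0.0649) or 3 (0.0632). Relative to WT, Fos was 4.55-fold lower in Smn1OE_K186R (-2.19, adjusted p = 0.00385). In Smn1OE it was 6.62-fold lower than in WT (-2.73, adjusted p = 0.00118). Comparisons of the 2 SMN groups share their Bap1KO or WT libraries and so are not independent of each other.

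Fosb, a close relative of Fos, was not called in any comparison. It stood at 6.83, 5.06 and 6.76 CPM in Smn1OE_K186R, 7.27, 5.16 and 7.54 in Smn1OE, 8.27, 6.01 and 11 in Bap1KO, and 6.37, 7.78 and 11.9 in WT. The groups overlapped in every comparison, and the log2 fold changes to Bap1KO were -0.44 in Smn1OE_K186R (95% interval -1.01 to 0.14) and -0.34 in Smn1OE (-0.91 to 0.24). Neither was called (adjusted p = 0.222 and 0.345).

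Fosl1, which encodes FRA-1, went the other way and was higher with SMN. It stood at 144, 108 and 125 CPM in Smn1OE_K186R, 144, 121 and 137 in Smn1OE, 72.2, 112 and 82.1 in Bap1KO, and 67.2, 80.7 and 65.7 in WT. Every SMN library lay above every WT library, and Bap1KO replicate 2 lay above Smn1OE_K186R replicate 2. Fosl1 rose in Smn1OE against Bap1KO by 0.59 ± 0.16 (SE; adjusted p = 0.0132), a call lost without Bap1KO replicate 1 (0.0562) or 3 (0.0516). It rose in Smn1OE_K186R against Bap1KO by 0.50 ± 0.16 (adjusted p = 0.0277), a call lost without Bap1KO replicate 1 (0.114) or 3 (0.0906), or Smn1OE_K186R replicate 1 (0.0978) or 3 (0.0565), and in a fit of those 2 groups alone (0.0743). Relative to WT it was 1.77-fold higher in Smn1OE_K186R (adjusted p = 0.00111). In Smn1OE it was 1.88-fold higher than in WT (adjusted p = 0.000593). Exons of Fosl1 overlap those of Ccdc85b on the other strand, and the strand setting of the counts is not given. Ccdc85b averaged 82.9 ± 9.25 CPM in Smn1OE_K186R, 89.1 ± 1.89 in Smn1OE, 104 ± 9.68 in Bap1KO and 101 ± 7.59 in WT (SD, n = 3), with lower means in the groups where Fosl1 was high. It was called lower in Smn1OE_K186R against Bap1KO (-0.33, adjusted p = 0.0217) and WT (-0.28, adjusted p = 0.0265). In Smn1OE it was not called against either (adjusted p = 0.0912 and 0.137). The part of the overlap in the Fosl1 counts was not tested.

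Fosl2, which encodes FRA-2, had its highest mean in Bap1KO. It stood at 213.6, 221.2 and 161.8 CPM in Smn1OE_K186R, 197.6, 179.2 and 159.9 in Smn1OE, 250.9, 182.0 and 230.3 in Bap1KO, and 168.1, 159.3 and 185.9 in WT. Its groups overlapped throughout, and no comparison called it in the filtered edgeR fit over all 12 libraries without a batch term. Bap1KO against WT had the largest difference, at 0.37 ± 0.14 (adjusted p = 0.116). This passed with no filter on low counts (0.0339), with media batch as a random effect (0.015) and with it as a block (0.00272). Smn1OE against Bap1KO was at -0.31 ± 0.14 (adjusted p = 0.11), which passed without Bap1KO replicate 2 (-0.43, adjusted p = 0.0308) and with no filter on low counts (adjusted p = 0.0498).

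**Figure D1:**
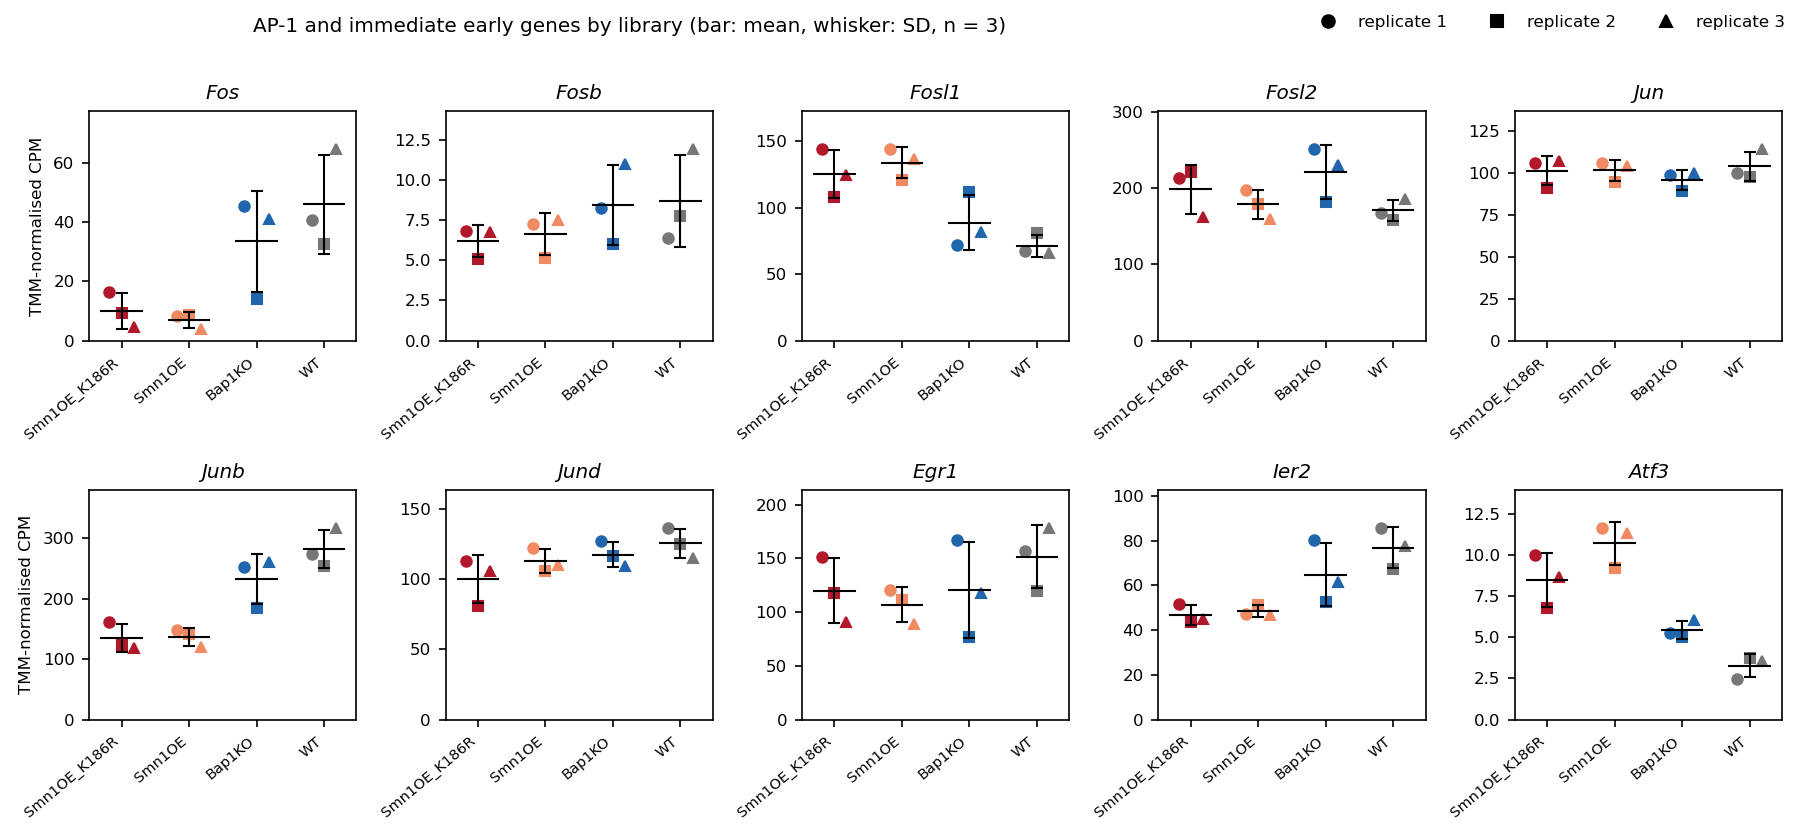
TMM-normalised CPM of each gene (y axis, linear and from 0) in the 12 libraries, by group (x axis), with marker shape for the replicate, horizontal bars for the mean and whiskers for the SD (n = 3). Fos lies at 3.79 to 16.4 CPM in the 6 SMN libraries and at 14.1 to 64.6 CPM in the others, while Fosl1 and Atf3 lie higher in the SMN groups and Jun is nearly level.

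Among the Jun genes, Junb was lower with SMN, while Jun and Jund were not called in either SMN group against Bap1KO. Junb, whose product can restrain c-Jun activity, stood at 162, 123 and 119 CPM in Smn1OE_K186R, 148, 141 and 120 in Smn1OE, 252, 184 and 260 in Bap1KO, and 274, 254 and 316 in WT. All 6 SMN libraries lay below all 6 others. Against Bap1KO the log2 fold change was -0.78 ± 0.15 (SE) in Smn1OE_K186R (adjusted p = 0.00345) and -0.77 ± 0.15 in Smn1OE (adjusted p = 0.00347). Against WT, Junb was 2.09-fold lower in Smn1OE_K186R (adjusted p = 0.000212) and 2.06-fold lower in Smn1OE (adjusted p = 0.000221). These calls held in every alternative. Exons of Junb overlap those of Prdx2 on the other strand. Prdx2 averaged 371 ± 62.3 CPM in Smn1OE_K186R, 395 ± 13.2 in Smn1OE, 407 ± 41.5 in Bap1KO and 472 ± 35 in WT (SD, n = 3). It was not called in either SMN group against Bap1KO (adjusted p = 0.403 in Smn1OE_K186R and 0.804 in Smn1OE). Against WT it was lower in Smn1OE_K186R (-0.35, adjusted p = 0.027), in the direction of Junb, and not called in Smn1OE (-0.26, adjusted p = 0.0876).

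Jun, the c-Jun gene, was the steadiest member. It stood at 106, 91.3 and 107 CPM in Smn1OE_K186R, 106, 94.6 and 104 in Smn1OE, 99, 89 and 99.9 in Bap1KO, and 100, 97.6 and 114 in WT. No comparison called it, and the 95% intervals of all 6 log2 fold changes lay within -0.31 and 0.27. Jund stood at 113, 80.9 and 106 CPM in Smn1OE_K186R, 122, 106 and 110 in Smn1OE, 127, 116 and 109 in Bap1KO, and 136, 125 and 115 in WT. It was called in Smn1OE_K186R against WT alone (-0.33 ± 0.12, adjusted p = 0.0353). That call was lost with DESeq2 (0.0504), with DESeq2 size factors (0.056), in a fit of the 2 groups alone (0.0801), and without Smn1OE_K186R replicate 2 (0.112), WT replicate 1 (0.127) or WT replicate 2 (0.071). The antisense genes Junos at Jun and Gm11175 at Jund averaged at most 1.37 and 0.346 CPM in any group.

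Atf3, the ATF-family member, was higher in Bap1KO than in WT and higher again in both SMN groups. It stood at 10, 6.75 and 8.66 CPM in Smn1OE_K186R, 11.6, 9.2 and 11.3 in Smn1OE, 5.27, 5.02 and 6.03 in Bap1KO, and 2.48, 3.75 and 3.56 in WT. Bap1KO libraries lay above all WT libraries and below all libraries of both SMN groups. Atf3 rose in Bap1KO against WT by 0.74 ± 0.19 (SE; adjusted p = 0.0326). It depended on most single libraries, with log2 fold changes of 0.57 to 0.80. The adjusted p was 0.0517, 0.0524 and 0.113 when Bap1KO replicate 1, 2 or 3 was left out, and 0.12 and 0.0617 when WT replicate 1 or 3 was. Against Bap1KO it rose in Smn1OE by 0.98 ± 0.19 (adjusted p = 0.00286), a call held in every alternative. In Smn1OE_K186R it rose by 0.64 ± 0.19 (adjusted p = 0.0219), lost without Bap1KO replicate 1 (0.0691) or 2 (0.058) or Smn1OE_K186R replicate 1 (0.0818) or 3 (0.0518). Against WT, Atf3 was 3.28-fold higher in Smn1OE (adjusted p = 4.5e-05) and 2.59-fold higher in Smn1OE_K186R (adjusted p = 0.000169).

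Egr1 and Ier2 are immediate early genes outside AP-1. Egr1, a zinc finger factor induced by serum, stood at 151, 118 and 91.2 CPM in Smn1OE_K186R, 121, 111 and 89.1 in Smn1OE, 167, 77.1 and 118 in Bap1KO, and 157, 120 and 178 in WT. The groups overlapped in every comparison and none was called, with log2 fold changes to Bap1KO of -0.01 in Smn1OE_K186R (95% interval -0.56 to 0.55) and -0.18 in Smn1OE (-0.73 to 0.38). In Smn1OE against WT the value was -0.50 (adjusted p = 0.122), and it passed in a fit of those 2 groups (0.0282) and with no filter on low counts (0.0145). Ier2, a nuclear early response protein, stood at 51.7, 43.4 and 44.9 CPM in Smn1OE_K186R, 47.1, 51.4 and 46.8 in Smn1OE, 80.2, 52.4 and 61.7 in Bap1KO, and 85.5, 67.1 and 77.8 in WT. All SMN libraries lay below all others, by little for Bap1KO replicate 2. Against Bap1KO the log2 fold change was -0.47 ± 0.14 in Smn1OE_K186R (SE; adjusted p = 0.023) and -0.42 ± 0.14 in Smn1OE (adjusted p = 0.0375). Against WT, Ier2 was 1.65-fold lower in Smn1OE_K186R (adjusted p = 0.00131) and 1.59-fold lower in Smn1OE (adjusted p = 0.0021).

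The Ier2 calls against Bap1KO rested on single libraries. In Smn1OE the call was lost without Bap1KO replicate 1 (-0.24, adjusted p = 0.181) or 3 (0.0621), without Smn1OE replicate 1 (0.0997), 2 (0.0516) or 3 (0.106), and in a fit of the 2 groups (0.0623). In Smn1OE_K186R it was lost without Bap1KO replicate 1 (-0.29, adjusted p = 0.101), without Smn1OE_K186R replicate 2 (0.0717) or 3 (0.0638), and in a fit of the 2 groups (0.0614). The Ier2 calls against WT held in every alternative.

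Counted together, 2 members rose and 3 fell in Smn1OE_K186R against Bap1KO and likewise in Smn1OE against Bap1KO, 5 of 10 in each. Over all tested genes 32.6% were called in Smn1OE_K186R against Bap1KO (16.1% higher and 16.5% lower) and 33.5% in Smn1OE against Bap1KO (15.8% higher and 17.7% lower). The members' median log2 fold change was -0.19 in Smn1OE_K186R and -0.24 in Smn1OE, where the median of all tested genes was -0.01 in both. Against WT, 2 members rose and 4 fell in Smn1OE_K186R, where 50.5% of all tested genes were called (24% higher and 26.5% lower). In Smn1OE 2 rose and 3 fell against WT, where 50.4% were called (23.8% higher and 26.6% lower), so these shares lie near the background. The group as a whole did not move one way: Fos, Junb and Ier2 were lower, Fosl1 and Atf3 higher, and Fosb, Fosl2, Jun and Egr1 were not called with SMN against Bap1KO or WT.

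**Figure D2:**
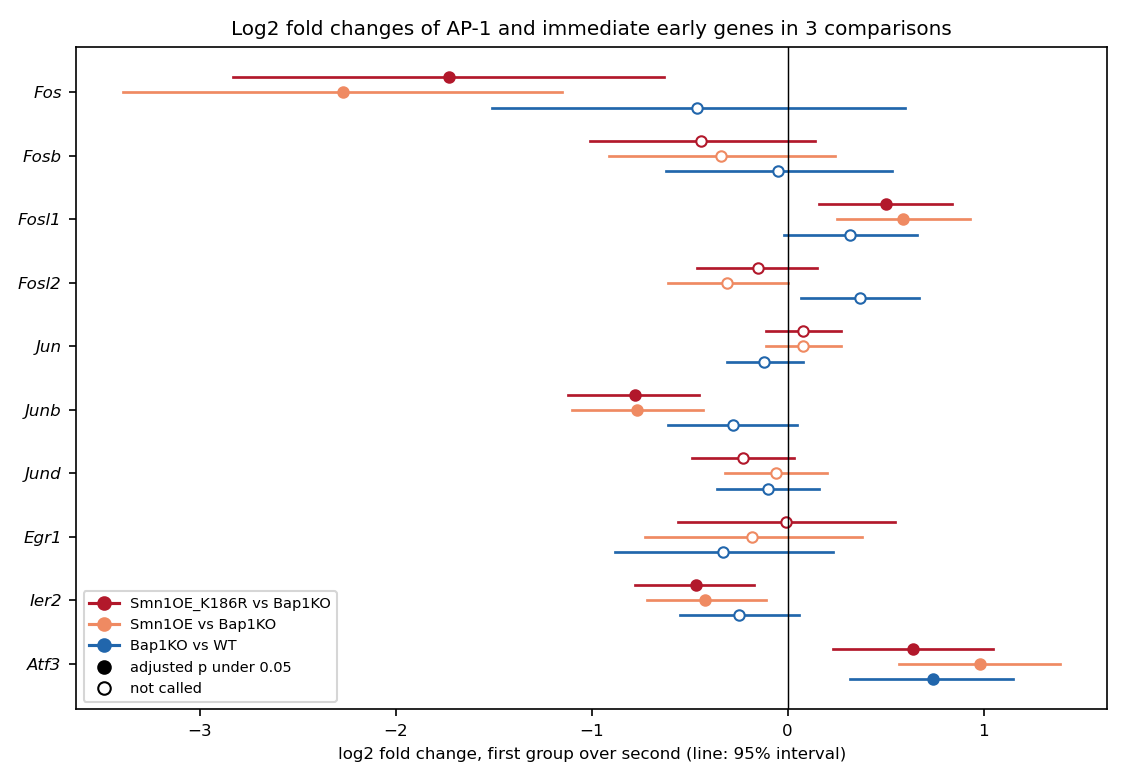
Log2 fold change of each gene (x axis, group named first over the other) with its 95% interval in Smn1OE_K186R against Bap1KO, Smn1OE against Bap1KO and Bap1KO against WT; filled points have an adjusted p under 0.05. Both SMN comparisons, which share the Bap1KO libraries, have filled points for Fos, Junb and Ier2 below 0 and for Fosl1 and Atf3 above 0, while in Bap1KO against WT only Atf3 is filled.

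Between the forms of SMN no member differed detectably. In Smn1OE_K186R against Smn1OE edgeR called 0 of 10 members and 0% of all tested genes, and no member had an unadjusted p under 0.05, where 388 genes (2.34%) did. DESeq2 also called 0 members and 0 genes in all. A fit blocked on media batch called 37 genes (0.223%), none of them a member, and 3 members had an unadjusted p under 0.05. Atf3 was lower in Smn1OE_K186R in each of the 3 shared batches, with log2 differences of -0.21, -0.45 and -0.38 (blocked adjusted p = 0.292). Fos was higher in each, with log2 differences of 1.01, 0.08 and 0.25 (blocked adjusted p = 0.4). Fosl2 and Egr1 were also higher in each batch, and Fosb and Jund lower. The share of all tested genes with the same direction in all 3 batches is not given here. The 95% intervals of the unblocked differences were -0.56 to 1.64 for Fos and -0.74 to 0.07 for Atf3, against -0.20 to 0.19 for Jun, so the data limit a difference far less tightly for Fos.

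In Bap1KO against WT the number of members called depended on how the media batch was treated. Without the pairing 1 member, Atf3, was called in Bap1KO against WT, where 9.72% of all tested genes were (3.36% higher and 6.37% lower). With the batch as a block 7 of 10 members were called, 3 higher and 4 lower, where 31.3% of all tested genes were called (13.9% higher and 17.4% lower). The blocked fit keeps 2 residual degrees of freedom. The replicates numbered alike share a batch in the labels.

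Of the 7, Fosl2, Fosl1 and Atf3 were higher, and Junb, Ier2, Egr1 and Fos were lower. With the batch as a random effect (estimated correlation 0.45) 4635 of the 16597 tested genes were called, 1887 higher and 2748 lower. In that fit 3 of the 10 members were called, all of them higher: Fosl2 (adjusted p = 0.015), Fosl1 (0.044) and Atf3 (0.00393). None of the 4 lower genes passed there, with adjusted p = 0.0512 for Junb, 0.058 for Ier2, 0.12 for Egr1 and 0.148 for Fos. Fosl2 rose by 0.37 ± 0.07 (SE; blocked adjusted p = 0.00272, unblocked 0.116), with differences of 0.58, 0.19 and 0.31 in the 3 batches. Fosl1 rose by 0.31 ± 0.07 (blocked 0.00713, unblocked 0.215), higher in 3 of 3 batches. Atf3 rose by 0.76 ± 0.15 (blocked adjusted p = 0.00428), with differences of 1.09, 0.42 and 0.76. In the blocked fit alone, Junb was at -0.28 (blocked 0.0097, unblocked 0.269) and Ier2 at -0.25 (blocked 0.0115, unblocked 0.287), each lower in 3 of 3 batches. Egr1 was at -0.36 (blocked 0.0348, unblocked 0.457) and Fos at -0.54 (blocked 0.0494, unblocked 0.598), both lower in 2 of 3 batches only. For Fos the differences were 0.16, -1.21 and -0.65, and for Egr1 0.09, -0.64 and -0.59. Fosb, Jun and Jund were not called with the block either (blocked adjusted p = 0.918, 0.168 and 0.217). Jun and Jund were nonetheless lower in 3 of 3 batches too, so the same direction in each batch was not limited to called genes.

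Libraries of 1 media batch leaned the same way in several members. Replicate 2, batch B of Bap1KO and WT, held the lowest Fos, Junb, Egr1 and Ier2 and the highest Fosl1 of both groups. Replicate 3, batch F of the SMN groups, held the lowest Fos, Junb and Egr1 of both groups. Fos at 4.52 and 3.79 CPM in that batch compares with 16.4 and 8.18 in replicate 1, so Fos varied more than 2-fold between batches within each SMN group.

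Per kilobase of exon (lengths from GENCODE M21), the member with the highest mean differed between groups. Fosl1 led in Smn1OE_K186R at 61.9 ± 8.93 CPM per kb (SD, n = 3), with Jund at 60 ± 10.2 and Junb at 58.6 ± 10.4, which do not differ beyond their spread. In Smn1OE Jund (67.5 ± 4.85), Fosl1 (65.9 ± 5.57) and Junb (59.2 ± 6.34) likewise lay within their spread. Junb led in Bap1KO at 101 ± 18.1, above Jund at 70.4 ± 5.26 and Fosl1 at 43.7 ± 10.3. Junb also led in WT at 122 ± 13.8, above Jund at 75.4 ± 6.33, Ier2 at 50.5 ± 6.1 and Fosl1 at 35 ± 4.04. Fosb was the lowest in each group, at 0.996 to 1.39 CPM per kb, and next above it stood Fos in Smn1OE (2.94 ± 1.16) and Atf3 in the other 3 groups (3.93 ± 0.762 in Smn1OE_K186R, 2.53 ± 0.243 in Bap1KO and 1.52 ± 0.319 in WT).

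The makeup of the Fos family on this per-length scale was summed after the single levels were seen and is a description. Fos, Fosb, Fosl1 and Fosl2 together gave 101, 80.8 and 81.4 CPM per kb in Smn1OE_K186R, 95.7, 82.8 and 86.6 in Smn1OE, 82.1, 81 and 83.4 in Bap1KO, and 68.8, 71.3 and 80.9 in WT. Fosl1 took 65.8 to 75.8% of that sum in Smn1OE_K186R and 72.1 to 77.7% in Smn1OE, against 43.3 to 68.2% in Bap1KO and 40 to 55.7% in WT. Fos took 2.36 to 6.91% in Smn1OE_K186R and 1.86 to 4.51% in Smn1OE, against 7.4 to 23.5% in Bap1KO and 19.5 to 34% in WT. The ratio of Fosl1 to Fos was thus 10.2, 13.5 and 32.1 in Smn1OE_K186R, 20.3, 16 and 41.8 in Smn1OE, 1.84, 9.22 and 2.31 in Bap1KO, and 1.91, 2.85 and 1.18 in WT. Each SMN library lay above each library without a vector, and Bap1KO replicate 2 stood nearest to them.

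The Jun family sum was lower in each SMN library than in each library without a vector, while the Fos family sums overlapped. The gap was small, with 172 in Smn1OE_K186R replicate 1 and 177 in Bap1KO replicate 2. Junb, already seen to be lower with SMN, is part of this sum, so it is a description. The share of all tested genes that separate in this way is not given here. Jun, Junb and Jund together gave 172, 130 and 149 CPM per kb in Smn1OE_K186R, 171, 154 and 151 in Smn1OE, 217, 177 and 210 in Bap1KO, and 232, 216 and 242 in WT. Junb took 34.8 to 41.1% of the sum in Smn1OE_K186R and 34.7 to 39.6% in Smn1OE, against 45.1 to 53.8% in Bap1KO and 51.1 to 56.7% in WT. The ratio of the Jun family to the Fos family was 1.62 to 1.83 in Smn1OE_K186R, 1.74 to 1.86 in Smn1OE, 2.19 to 2.64 in Bap1KO and 2.99 to 3.38 in WT. The Bap1KO range overlapped neither that of WT nor those of the SMN groups. With 3 libraries a group an exact 2-sided permutation test cannot give a p below 0.1.

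**Figure D3:**
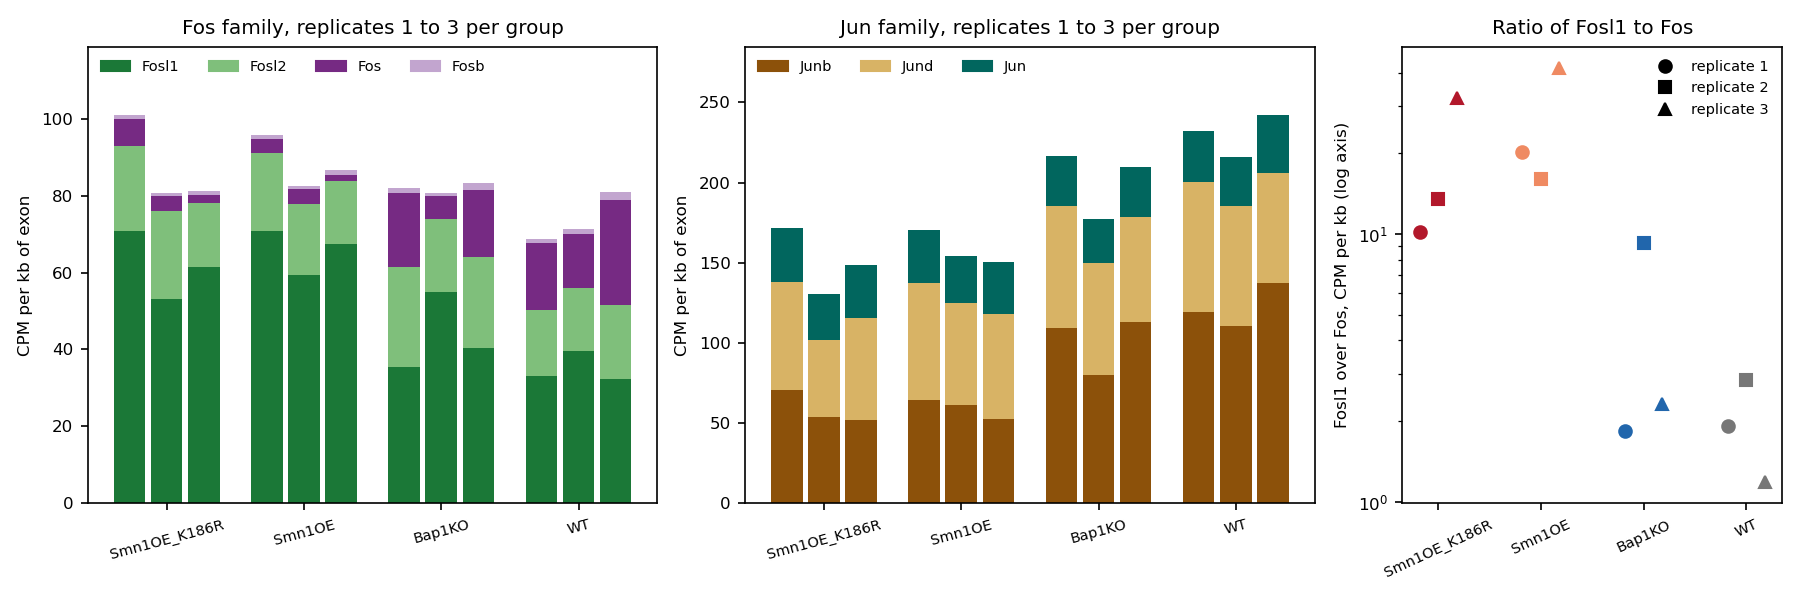
Stacked levels of the Fos genes and of the Jun genes in CPM per kb of exon (y axes, from 0) for replicates 1 to 3 of each group, and the ratio of Fosl1 to Fos per library on a log axis. Fos fills 19.5 to 34% of the Fos family in WT and at most 6.91% in the SMN libraries, and the ratio of Fosl1 to Fos is 10.2 or more in each SMN library and 9.22 or less in the others.

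Genes with the pattern most like a member were sought by the root mean square (RMS) difference of centred log2 CPM over the 12 libraries. Fos lay closest to Olfml3 (0.22), which encodes a secreted olfactomedin-domain protein, Tspan18 (0.25) and Abca8a (0.28), where its own RMS deviation was 1.31, so none of its nearest 3 was an immediate early gene of the lists used here. Olfml3 averaged 19.9 CPM in Smn1OE_K186R, 14.2 in Smn1OE, 63.9 in Bap1KO and 94.4 in WT. Fosl1 lay closest to Tmem199 (0.08) and to Bcl2l1, the BCL-XL gene (0.10), and Junb to the TNF receptor gene Tnfrsf1a (0.10). Atf3 lay closest to Cd68 (0.18), the uncharacterised 6530437J22Rik (0.18) and Hmox1, the haem oxygenase gene (0.19). The smallest difference between 2 members was 0.18, for Jun and Jund, both nearly flat, followed by 0.23 for Ier2 and Junb.

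The summed markers of FAPs and fibroblasts were, like Fos and Junb, lower in the SMN groups. The summed level of 8 markers (Pdgfra, Ly6a, Cd34, Dcn, Lum, Col1a1, Col3a1 and Pdgfrb) was 4187 to 5856 CPM in Smn1OE_K186R, 3530 to 5378 in Smn1OE, 9044 to 15878 in Bap1KO and 14242 to 20679 in WT, and Col1a1 and Col3a1 made up most of it. Cd34 ran against the others, at 60.9 ± 25.9 CPM in Smn1OE_K186R and 65.3 ± 31.8 in Smn1OE, against 23.5 ± 4.86 in Bap1KO and 44.1 ± 4.64 in WT (SD, n = 3). All 8 were counted in every library. Pdgfra, the usual FAP marker, stood at 22.8 ± 6.88 CPM in Smn1OE_K186R, 18 ± 3.62 in Smn1OE, 33.8 ± 6.81 in Bap1KO and 90.9 ± 15 in WT, and Lum was at most 10.1 CPM. The part of these shifts in the results was not tested, and in bulk cultures fewer cells of a type and less RNA per cell cannot be told apart. Of other cells, 6 myogenic markers summed to 80.1 to 115 CPM in Smn1OE_K186R, 65.5 to 104 in Smn1OE, 106 to 176 in Bap1KO and 133 to 180 in WT. Most of that was Vcam1, the marker the sort selected against, at 97.2 ± 18.2, 80.2 ± 19.6, 139 ± 36 and 150 ± 24.1 CPM in those groups (SD, n = 3). Des averaged 1.58 to 3.89 CPM, and Pax7, Myf5 and Myod1 had no count in Smn1OE_K186R, Bap1KO or WT. Macrophage markers summed to 16.1 to 21.7 CPM in Smn1OE_K186R, 16.1 to 21.2 in Smn1OE, 18.9 to 27.1 in Bap1KO and 11.4 to 17 in WT, with Adgre1 at 0 in Bap1KO and Itgam at 0 in WT. Within that sum Cd68 was higher and Csf1r lower with SMN against Bap1KO. Cd68 was at 0.88 in Smn1OE_K186R (log2, adjusted p = 0.0117) and 1.15 in Smn1OE (adjusted p = 0.00308), and Csf1r at -0.90 (adjusted p = 0.0351) and -1.27 (adjusted p = 0.00758) in the same groups. The 3 tenocyte markers summed to 11.2 to 13.3 CPM in Smn1OE_K186R and 11.3 to 12 in Smn1OE, against 22.2 to 39.6 in Bap1KO and 29.2 to 45.9 in WT. Tnmd followed the sum, at 4.11 CPM in Smn1OE_K186R, 3.29 in Smn1OE, 17.8 in Bap1KO and 29.2 in WT. Scx did not: it averaged 6.59, 6.78, 8.85 and 4.19 CPM in those groups, lowest in WT. Mkx averaged 1.32, 1.47, 1.51 and 2.32 CPM. The 5 pericyte markers summed to 98.7 to 198 CPM in Smn1OE_K186R and 109 to 218 in Smn1OE. These ranges overlapped those of Bap1KO (94.7 to 134) and WT (93.8 to 130). Within that sum the markers moved apart. Mcam averaged 85.2 ± 39.8 CPM in Smn1OE_K186R and 95.8 ± 37.7 in Smn1OE, against 34.8 ± 13 in Bap1KO and 46.9 ± 14.1 in WT (SD, n = 3). In the same order of groups Rgs5 averaged 1.96, 2.35, 0.742 and 1.62 CPM, and Cspg4 65.8, 65.7, 72.1 and 58.9. Kcnj8 averaged 0.606, 0.991, 1.49 and 4.93 CPM, and Abcc9 0.658, 0.586, 0.574 and 1.77. The part of these markers in the results was not tested.

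Other immediate early genes also moved in both directions. All 35 listed were tested, and in both SMN groups against Bap1KO 8 rose and 12 fell (57.1%), with a median log2 fold change of 0.08 in Smn1OE_K186R and -0.03 in Smn1OE. Over all tested genes 32.6% were called in Smn1OE_K186R against Bap1KO and 33.5% in Smn1OE. Cebpd, a C/EBP factor, averaged 30 CPM in Smn1OE_K186R and 25.1 in Smn1OE, against 91.3 in Bap1KO (-1.60, adjusted p = 0.00536, and -1.86, adjusted p = 0.00244). Nr4a1, an orphan nuclear receptor induced with Fos, averaged 78.3 and 66.5 CPM in these SMN groups, against 172 in Bap1KO (-1.14, adjusted p = 0.00329, and -1.37, adjusted p = 0.00124). Socs3, a cytokine feedback inhibitor, averaged 23.1 CPM in Smn1OE_K186R (-1.35, adjusted p = 0.0183) and 19.6 in Smn1OE (-1.58, adjusted p = 0.00867), against 58.8 in Bap1KO. Trib1 was among the largest in Smn1OE, where it fell by 1.16 (adjusted p = 0.00033). It averaged 16.7 CPM in Smn1OE_K186R and 15.4 in Smn1OE, against 34.5 in Bap1KO. Ptgs2, the cyclooxygenase-2 gene, rose instead: it averaged 1732 CPM in Smn1OE_K186R, against 813 in Bap1KO (1.09, adjusted p = 0.00416). In Smn1OE it averaged 1493 CPM.

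In Bap1KO against WT 4 of the 35 rose and 2 fell (9 and 12 with the batch block), with a median of -0.08 where all tested genes had 0.00. Over all tested genes 9.72% were called there, and 31.3% with the block. Ptgs2 averaged 813 CPM in Bap1KO and 448 in WT (0.86, adjusted p = 0.0323). Nr4a3, another orphan receptor, rose by 0.77 (adjusted p = 0.0266) and Myc by 0.50 (adjusted p = 0.00575). Gem, a small GTPase gene, fell by 1.04 (adjusted p = 0.027) at 1.15 CPM in Bap1KO and 2.38 in WT. Between the SMN groups none of the 35 was called, and Egr2 (0.42) and Egr3 (0.35) had the smallest p (adjusted p = 0.997 each).

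Of 10 further bZIP partners 7 were tested, since Batf, Batf2 and Batf3 were too low. Both SMN groups had 2 risen and 1 fallen against Bap1KO (42.9%), the same genes in each. The shares over all tested genes were 32.6% in Smn1OE_K186R and 33.5% in Smn1OE. Maf, a large Maf factor, averaged 8.31 CPM in Smn1OE_K186R (-0.82, adjusted p = 0.0269) and 6.23 in Smn1OE (-1.23, adjusted p = 0.00401), against 14.7 in Bap1KO. Mafg, a small Maf, rose by 0.44 (adjusted p = 0.00285) and 0.48 (adjusted p = 0.00162), and Atf2, a partner of Jun, by 0.48 (adjusted p = 0.00252) and 0.40 (adjusted p = 0.00573) in the same groups. None was called in Bap1KO against WT, where Mafk had the smallest p (0.60, adjusted p = 0.058). With the batch block 3 of the 7 rose there and none fell. Of all tested genes 9.72% were called there without the block and 31.3% with it.

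More of the genes known as AP-1 targets rose than fell with SMN. All 16 listed were tested. In Smn1OE_K186R against Bap1KO 6 rose and 2 fell, 50% of the list where 32.6% of all tested genes were called (median 0.54). In Smn1OE 8 rose and 2 fell, 62.5% where 33.5% of all were called (median 0.61). Over all tested genes 16.1% rose in Smn1OE_K186R and 15.8% in Smn1OE. Mmp10, the stromelysin-2 gene, averaged 14.7 CPM in Smn1OE_K186R and 17.1 in Smn1OE, against 2.75 in Bap1KO (2.42, adjusted p = 0.00305, and 2.64, adjusted p = 0.00183). Areg, which encodes the EGF receptor ligand amphiregulin, averaged 3.19 CPM in Smn1OE_K186R and 3.58 in Smn1OE, against 0.733 in Bap1KO (2.11, adjusted p = 0.00187, and 2.28, adjusted p = 0.00117). Mmp9, a gelatinase gene, rose by 1.82 (adjusted p = 0.00187) and 1.92 (adjusted p = 0.00128) in those groups. Il6, a cytokine gene, went against the list: it averaged 4.83 CPM in Smn1OE_K186R and 3.08 in Smn1OE, against 18 in Bap1KO (-1.89, adjusted p = 0.00114, and -2.54, adjusted p = 0.00027). In Bap1KO against WT 1 of 16 was called: Spp1, the osteopontin gene, averaged 964 CPM in Bap1KO and 3361 in WT (-1.80, adjusted p = 0.0203). With the batch block 5 of the 16 rose and 6 fell. Of all tested genes 9.72% were called in Bap1KO against WT without the block and 31.3% with it.

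Feedback regulators of the MAP kinase pathway had the highest share of calls among these lists in both SMN groups against Bap1KO, but not against WT. Against WT 57.1% of them were called in Smn1OE_K186R and 64.3% in Smn1OE. The AP-1 targets had 87.5% and 75% there, and all tested genes 50.5% and 50.4%. Of 14 listed and tested, 9 rose and 2 fell in Smn1OE_K186R against Bap1KO (78.6%, median 0.56), and 8 rose and 3 fell in Smn1OE (78.6%, median 0.50). The shares over all tested genes were 32.6% in Smn1OE_K186R and 33.5% in Smn1OE. Dusp4, a nuclear MAP kinase phosphatase, averaged 119 ± 26.4 CPM in Smn1OE_K186R and 129 ± 36.8 in Smn1OE, against 27.6 ± 15.5 in Bap1KO (SD, n = 3), with log2 fold changes of 2.10 (adjusted p = 0.00241) and 2.22 (adjusted p = 0.00161). Dusp5, an ERK phosphatase, rose by 1.60 (adjusted p = 0.000957) in Smn1OE_K186R and by 1.84 (adjusted p = 0.000401) in Smn1OE. Spry4, a Sprouty inhibitor of receptor signalling, rose by 1.09 (adjusted p = 0.000867) and 1.11 (adjusted p = 0.000661). Dusp6, another ERK phosphatase, rose by 0.96 in Smn1OE_K186R (adjusted p = 0.00033). Spry1 fell by 1.08 in Smn1OE (adjusted p = 0.00438). It averaged 9.32 CPM in Smn1OE_K186R and 8.5 in Smn1OE, against 18 in Bap1KO. In Bap1KO against WT 9.72% of all tested genes were called, and 31.3% with the batch block. Of the 14 feedback regulators 4 fell there and none rose (6 and 1 with the batch block): Errfi1, an EGF receptor inhibitor (-1.10, adjusted p = 0.0362), Spry1 (-0.87, adjusted p = 0.031), Dusp6 (-0.49, adjusted p = 0.0222) and Spry2 (-0.43, adjusted p = 0.0295). Dusp6 thus averaged 28.5 CPM in Smn1OE_K186R, 27.8 in Smn1OE, 14.6 in Bap1KO and 20.5 in WT.

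Upstream factors, kinases and receptors were called with SMN against Bap1KO about as often as other genes, but more often against WT. Against WT the share was 75% in Smn1OE_K186R (14 rose and 4 fell) and 58.3% in Smn1OE (11 rose and 3 fell). Over all tested genes it was 50.5% and 50.4% there. Of 24 genes 5 rose and 1 fell in Smn1OE_K186R against Bap1KO (25%, median 0.14), and 5 rose and 2 fell in Smn1OE (29.2%, median 0.12). The shares over all tested genes were 32.6% in Smn1OE_K186R and 33.5% in Smn1OE. Pdgfrb, a PDGF receptor gene, averaged 228 ± 29.9 CPM in Smn1OE_K186R and 194 ± 5.37 in Smn1OE, against 376 ± 28.9 in Bap1KO (-0.72, adjusted p = 0.000548, and -0.95, adjusted p = 0.000129). Egfr averaged 114 ± 15.2 CPM in Smn1OE_K186R and 104 ± 6.09 in Smn1OE, against 74 ± 9.28 in Bap1KO (0.63, adjusted p = 0.00258, and 0.49, adjusted p = 0.00747). Pdgfra fell by 0.90 in Smn1OE against Bap1KO (adjusted p = 0.0111) and by 1.43 in Bap1KO against WT (adjusted p = 0.00398). Creb1, whose product binds the CRE, rose by 0.31 in Smn1OE_K186R (adjusted p = 0.0186) and by 0.40 in Smn1OE (adjusted p = 0.00505). The other gene of the 24 called in Bap1KO against WT was Rps6ka1, a kinase gene downstream of ERK (-0.75, adjusted p = 0.0232), and with the batch block 3 rose and 4 fell. Of all tested genes 9.72% were called there without the block and 31.3% with it.

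**Figure D4:**
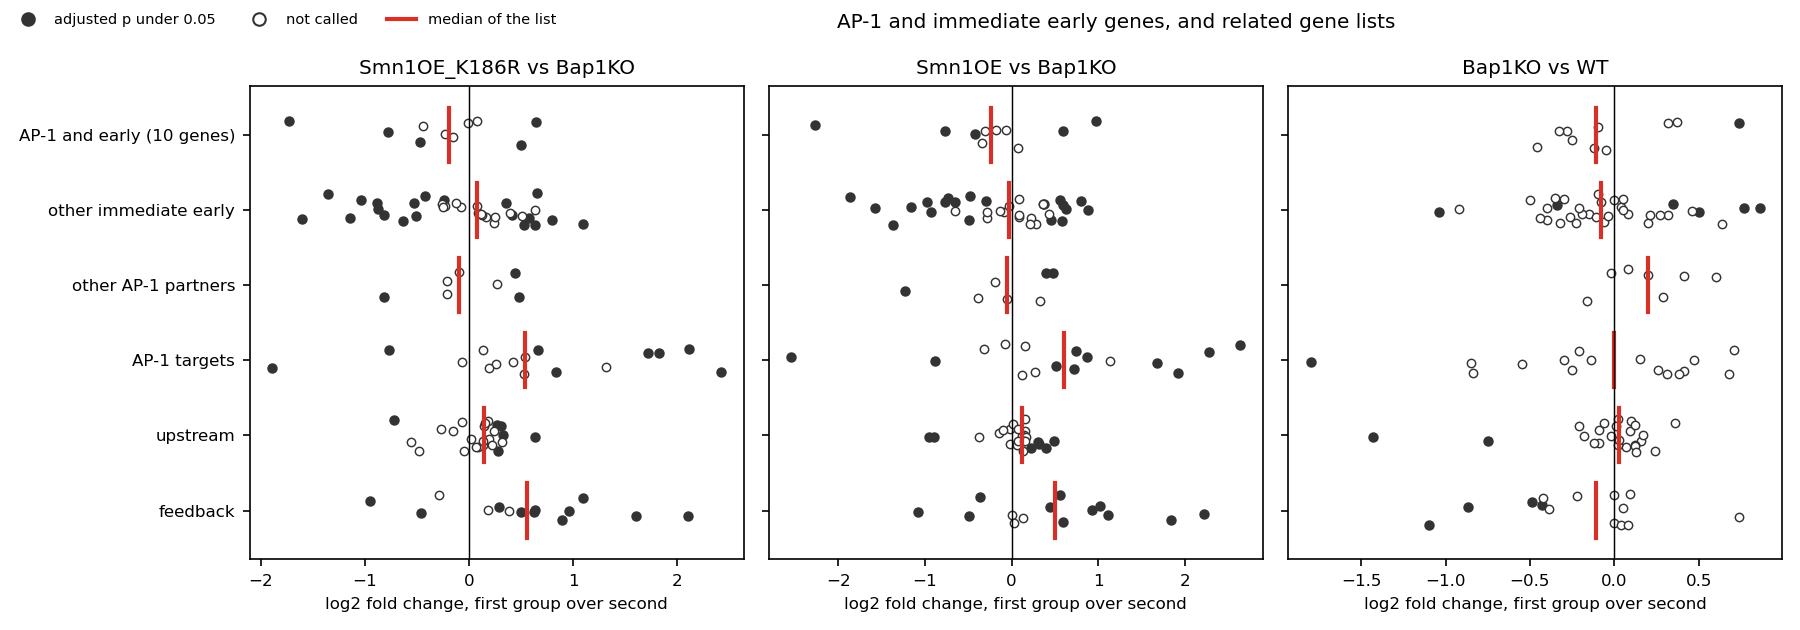
Log2 fold changes (x axis, group named first over the other) of the 10 AP-1 and immediate early genes and of 5 related lists (rows) in 3 comparisons, with filled points for an adjusted p under 0.05 and a red bar for the median of each list. With SMN the medians of the AP-1 targets (0.54 and 0.61) and of the feedback regulators (0.56 and 0.50) lie above 0, and that of the 10 genes lies below (-0.19 and -0.24).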

How the data were processed

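RNA from 12 cultures was sequenced as paired ends from TruSeq libraries, per the labels' protocols. Per the submitters' processing notes which give no role or order, the authors used HTSeq 0.9.1, STAR 2.6.1, DESeq2, cutadapt 1.4.2 and CASAVA 1.8.2, with the build GRCm39; the annotation release and strand setting are not given in the sources used here. The deposited files hold raw whole-number counts per Ensembl gene, with 5 closing rows of unassigned reads that were left out. Symbols and exon lengths came from GENCODE M21. Counts were tested with edgeR 4.0.16 (R 4.3.3, limma 3.58.1): TMM scaling, filterByExpr with a minimum count of 10, 1 quasi-likelihood fit over all 12 libraries (8 residual degrees of freedom), prior count 0.125, Benjamini-Hochberg adjustment over 16597 genes and a threshold of 0.05. SE is the log2 fold change over the root of F. DESeq2 1.42.0 was an alternative. Scripts were tested on simulated data.

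Same-numbered libraries share a media batch in the labels for Bap1KO with WT and for Smn1OE_K186R with Smn1OE; their deviations from the group means correlated at 0.51, 0.66 and 0.43 and at 0.57, 0.46 and 0.64. The members and gene lists were chosen with earlier results of these data known. In other lists, up to 4 called genes with the largest fold change and a mean of at least 1 CPM were named, or the 2 with the smallest p where none was called. Nearest patterns used log2(CPM + 0.1).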

Additional observations from a re-analysis of the deposited data

How the results depend on the processing

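Of 720 member values recomputed under alternatives, 636 kept direction and call, 13 gained the call, 43 lost it, and 28 changed sign with no call on either side. These 28 belong to 12 results, with adjusted p of 0.626 or more, and 0.403 or more after the change. Egr1 in Smn1OE_K186R against Bap1KO (-0.01) became 0.01 with DESeq2 or its size factors, 0.03 with the random effect, 0.02 with the replicate block, and -0.25 to 0.29 with a library left out. Jun in Smn1OE against WT (-0.04) became 0.00 with DESeq2 or its size factors and -0.08 to 0.03 with a library left out, the same range as in Smn1OE_K186R against WT. With a library left out, Fosb in Bap1KO against WT was -0.28 to 0.25, Egr1 in Smn1OE against Bap1KO -0.42 to 0.13, and Fosl2 in Smn1OE against WT -0.01 to 0.14. In Smn1OE_K186R against Smn1OE the ranges were -0.00 to 0.89 for Fos, -0.25 to 0.03 for Fosb, -0.20 to 0.01 for Fosl1, -0.05 to 0.07 for Jun, -0.17 to 0.06 for Junb and -0.03 to 0.33 for Egr1. The cause was not tested. Genes called in Bap1KO against WT numbered 1614, and 2595 with DESeq2, 4635 with media batch as a random effect, 5199 with it as a block, and 553 to 1478 with a library left out. There the 1 member called became 2 with no filter on low counts, 3 with the random effect, 7 with the block and 0 to 1 with a library left out. In Smn1OE against Bap1KO 5567 genes became 2764 with the replicate number as a block and 3523 to 5628 with a library left out (3524 without Bap1KO replicate 1, 3523 without Smn1OE replicate 3). The 5 members became 3 with the block and 3 to 6 with a library left out, 3 without Bap1KO replicate 1 or 3. In Smn1OE_K186R against Bap1KO 5416 genes became 3532 in a fit of the 2 groups, 1560 with the block and 3436 to 5337 with a library left out. The 5 members became 3 in the 2-group fit, 1 with the block and 1 to 4 with a library left out, with 1 without Bap1KO replicate 1 or Smn1OE_K186R replicate 3. Across those batches the replicate number is only a number, with no pairing in the labels. In Smn1OE_K186R against Smn1OE 0 genes became 37 with the block and 0 with any library left out. Against WT, genes called were 6827 to 7749 in Smn1OE_K186R (8384 with all libraries) and 6926 to 7739 in Smn1OE (8370), and members 5 to 6 and 5. Fos and Atf3, at 200 and 163 counts in their lowest libraries, are limited by the spread between 3 libraries a group.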
